A study of Mus musculus with 4 samples.

Results

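The genes examined here are Id1, Id2, Id3, Id4, Msx1, Msx2, Smad6, Smad7 and Smad9, which are widely used as readouts of BMP signalling. They were taken by name from the array design, and all 9 were among the 22455 genes that were measured and tested on all 4 arrays. Each is represented by 1 probe, printed in 4 spots per array, so that no second probe of any of them could be compared. The RNA came from ureters of wild-type NMRI mouse embryos of unrecorded sex that had been dissected at E12.5 and kept for 18 h on transwell membranes, either with 10 µM IWP-2 or with the solvent DMSO as the control. IWP-2 inhibits Porcupine, the enzyme that attaches the lipid WNT ligands need for secretion. It was added to the culture medium and so was not directed at a single tissue of the explant. On each of 4 two-colour arrays 1 pool of treated ureters was compared with 1 pool of control ureters, with the treated RNA in red on arrays 1 and 3 and in green on arrays 2 and 4. The labels number the arrays as replicates and do not say whether pools shared litters or culture days, so the p-values measure the spread between these 4 pairs of pools.

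BMP ligands bind receptor kinases that phosphorylate SMAD1, SMAD5 and SMAD9, and these enter the nucleus with SMAD4 and switch on target genes. The ID genes are among the most direct of these targets. Their products are helix-loop-helix proteins without a DNA-binding region, which capture E proteins (encoded by Tcf3, Tcf4 and Tcf12) and keep them off DNA. MSX1 and MSX2 are homeodomain repressors that are induced by BMPs in many embryonic mesenchymes. In ureters of control embryos, at a later stage than the explants here, the study found Msx2 RNA in the epithelium only. SMAD6 and SMAD7 are inhibitory SMADs that close a negative feedback loop on the receptors, SMAD7 also on those of TGF-beta. SMAD9 belongs by structure to the receptor-activated class and not to the inhibitory one. In the developing ureter, BMP4 from the mesenchyme acts on both mesenchyme and epithelium.

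All 9 genes were lower with IWP-2 (9 of 9 past the test). Of all genes tested 15% were called lower and 33.1% were called in either direction. The 9 genes were chosen with earlier results of these data known, so the shares are not set against a list picked blind. The test was limma on the log2 ratio of IWP-2 over control with a dye term, and the adjusted p is its two-sided Benjamini-Hochberg value over all 22455 genes, with a threshold of 0.05. The median log2 ratio of the 9 genes was -0.58, against 0.00 over all genes. On single arrays their median was -0.50, -0.71, -0.68 and -0.64. The falls ranged from 2.79-fold for Id4 to 1.24-fold for Smad7. Id4 was the only one to be at least 2-fold lower, a size reached by 0.735% of all genes in that direction. Without array 1, with an offset of 16, with the processed signals or with the series table there were 2 such genes, since Msx2 then lay between -1.03 and -1.01. All 9 were lower on 4 of 4 arrays, as were 21% of all genes, and all 141 spots of their probes that entered the analysis had a ratio below 0. After normalisation, the control channels lay above all treated channels for 9 of 9 genes, against 11.5% of all genes. The SD between arrays was of ordinary size, with a median of 0.11 for these genes and 0.11 for all genes.

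**Figure D1:**
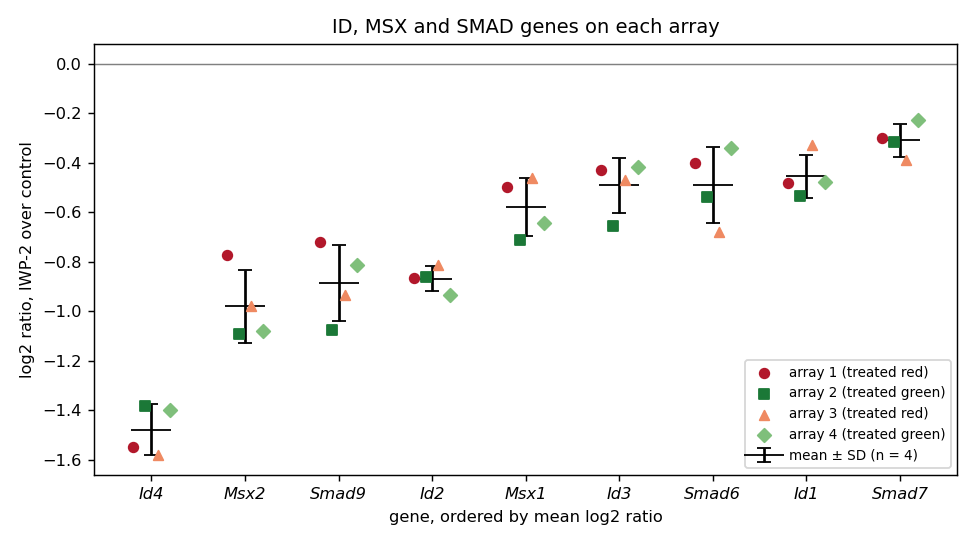
Log2 ratio of IWP-2 over control (y axis) for the 9 genes (x axis), with 1 symbol per array and the mean ± SD over 4 arrays as bars. All points lie below 0, and Id4 lies lowest on each array, between -1.58 and -1.38.

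**Figure D2:**
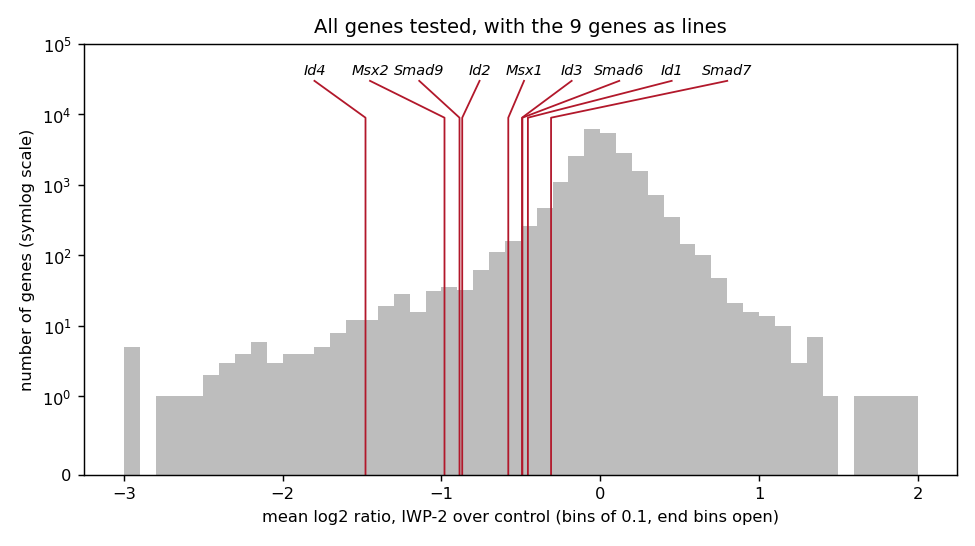
Number of genes (y axis, a logarithmic scale that is linear near 0) by mean log2 ratio of IWP-2 over control (x axis, bins of 0.1, with more extreme values gathered in the end bins) for all 22455 genes tested. Red lines mark the means of the 9 genes, which run from -1.48 for Id4 to -0.31 for Smad7 and all lie left of the centre of the distribution at 0.00.

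The explants are mixed tissue, and in such bulk RNA fewer cells of a type and less RNA per cell cannot be told apart. Markers of ureteric epithelium and mesenchyme were well above background in all channels, as was every one of the 37 marker genes examined, with none at 0. All 7 epithelial markers were higher with IWP-2 (median log2 ratio 0.30), and their summed processed signal was 40882 to 54041 in control and 46388 to 67147 in treated channels. Of 6 mesenchymal markers, Tbx18 was lower (-0.74 ± 0.26), Pdgfrb was higher (0.80 ± 0.07) and 4 were not called, with summed signals of 93054 to 134769 and 102254 to 131434. Endothelial markers were higher for 4 of 6 genes (median 0.19, summed signals 11949 to 16825 in control and 13520 to 19284 in treated channels), and blood markers for 4 of 6 (median 0.23, 39179 to 62036 and 50794 to 74438). Of 6 nephron progenitor markers 5 were higher, Six2 most (1.14 ± 0.27), and Crym was lower (-0.96 ± 0.45), with summed signals of 11243 to 14125 in control and 12189 to 16070 in treated channels. Of 6 neural crest markers 2 were higher and Ednrb was lower (-1.38 ± 0.29). The summed signal of the neural crest list was 13732 to 20108 in control and 12531 to 19131 in treated channels, and was lower with IWP-2 on each array (treated over control 0.754 to 0.951). The part of these shifts in the falls of the 9 genes was not tested. The readouts of canonical WNT signalling fell as well, with log2 ratios of -1.56 ± 0.09 for Axin2, -1.47 ± 0.16 for Lef1 and -1.59 ± 0.08 for Nkd1 (SD, n = 4, limma adjusted p = 1.22e-05, 1.22e-05 and 1.04e-05).

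Promoter windows were searched for SMAD and TCF/LEF motifs. The 250 bases upstream of the start sites of the 4 genes that fell most are given below. They are from RefSeq (GRCm38.p6) and run 5' to 3' on the strand of the gene, and capitals mark GGCGCC, a sequence bound by SMAD1 and SMAD5.
Id4, chr13:48260866-48261115, plus strand: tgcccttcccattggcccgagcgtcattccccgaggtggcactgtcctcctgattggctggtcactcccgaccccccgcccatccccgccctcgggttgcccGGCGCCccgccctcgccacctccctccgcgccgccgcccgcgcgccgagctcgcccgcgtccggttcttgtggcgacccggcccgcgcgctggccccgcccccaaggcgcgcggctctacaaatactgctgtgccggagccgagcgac
Msx2, chr13:53472781-53473030, minus strand: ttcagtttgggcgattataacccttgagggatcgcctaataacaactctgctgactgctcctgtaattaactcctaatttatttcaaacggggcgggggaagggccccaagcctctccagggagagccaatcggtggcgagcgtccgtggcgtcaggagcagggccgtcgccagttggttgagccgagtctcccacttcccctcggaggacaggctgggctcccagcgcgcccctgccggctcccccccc
Smad9, chr3:54755332-54755581, plus strand: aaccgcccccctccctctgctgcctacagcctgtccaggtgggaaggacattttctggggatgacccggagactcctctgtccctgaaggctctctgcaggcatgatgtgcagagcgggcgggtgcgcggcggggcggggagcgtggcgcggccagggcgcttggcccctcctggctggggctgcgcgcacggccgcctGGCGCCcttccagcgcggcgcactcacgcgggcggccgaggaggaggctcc
Id2, chr12:25096093-25096342, minus strand: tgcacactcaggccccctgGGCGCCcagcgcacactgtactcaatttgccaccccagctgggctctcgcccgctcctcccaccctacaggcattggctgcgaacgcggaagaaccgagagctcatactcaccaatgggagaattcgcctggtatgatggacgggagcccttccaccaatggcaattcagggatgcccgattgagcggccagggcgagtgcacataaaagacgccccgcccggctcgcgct

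RefSeq promoter windows were matched for 7 of the 9 genes, namely Id2, Id3, Id4, Msx1, Msx2, Smad6 and Smad9. GGCGCC was found in 3 of the 7 windows of 300 bases, beginning at -148 in Id4, -51 in Smad9 and -231 in Id2, counted from the start site, and in 11.9% of all 32851 windows. All 7 windows were richer in G and C over their 250 upstream bases than the median of all windows (52.4%), with 75.6% in Id4, 73.2% in Smad9 and 62.8% in Id2, and with 68% in Msx1, 66.8% in Smad6 and 62.8% in Id3, which lack GGCGCC. The Msx2 window, at 61.6% G and C, has none of the motifs searched. The SMAD palindrome GTCTAGAC, found in 0.213% of windows, was present in Smad6, where it begins at -4 and spans the start. The longer BMP response element, in which a GGCG core and GTCT are set apart by a spacer (0.244% of windows), and the TCF/LEF core CTTTGAT (3.73%) were in none of the 7. Both strands were searched. These are matches of letters only, and no binding was measured.

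Id4 had the largest fall of the 9 genes. Its probe lies on chromosome 13 (48358668 to 48358727, plus strand, mm9 build). Its processed signal, the background-subtracted and dye-normalised intensity of the scanner files, went from 9354 in control to 3170 in treated RNA on array 1, from 9622 to 3634 on array 2, from 12978 to 4439 on array 3 and from 11139 to 4176 on array 4. The highest treated channel was thus below the lowest control channel. The log2 ratios were -1.55, -1.38, -1.58 and -1.40, with a mean of -1.48 ± 0.10 (SD, n = 4), a 95% interval of -1.57 to -1.39 and a limma adjusted p = 8.22e-06, so that 35.9% of the control level was left. Among all genes Id4 ranked 43, 89, 65 and 85 from the bottom on the 4 arrays.

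Id2, which is also known for roles in lymphoid and epithelial development, fell less than Id4. Its probe (chromosome 12, 25778904 to 25778963, minus strand) gave processed signals of 24955 and 13667 on array 1, 21484 and 11706 on array 2, 28625 and 16275 on array 3, and 27993 and 14659 on array 4, in control and treated RNA. The groups did not overlap. Its log2 ratios of -0.86, -0.86, -0.81 and -0.94 had the smallest SD of the 9 genes (-0.87 ± 0.05, n = 4, limma adjusted p = 4.93e-05, 54.7% left).

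Id1 and Id3, which act redundantly in embryonic vessel and brain development, had smaller and similar falls. The processed signal of Id3 (chromosome 4, 135700075 to 135700249, plus strand) went from 20107 to 14836, 23910 to 15446, 27669 to 19667 and 23581 to 17825 on arrays 1 to 4. That of Id1 (chromosome 2, 152563083 to 152563142, plus strand) went from 2969 to 2106, 2923 to 2006, 3308 to 2659 and 4021 to 2882. For both genes every treated channel was below every control channel. Log2 ratios were -0.43, -0.66, -0.47 and -0.42 for Id3 (mean -0.49 ± 0.11, 1.41-fold, limma adjusted p = 0.00106) and -0.48, -0.53, -0.33 and -0.48 for Id1 (mean -0.46 ± 0.09, 1.37-fold, limma adjusted p = 0.000836). The 4 ID genes thus had a median log2 ratio of -0.68, and all 4 passed the test.

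**Figure D3:**
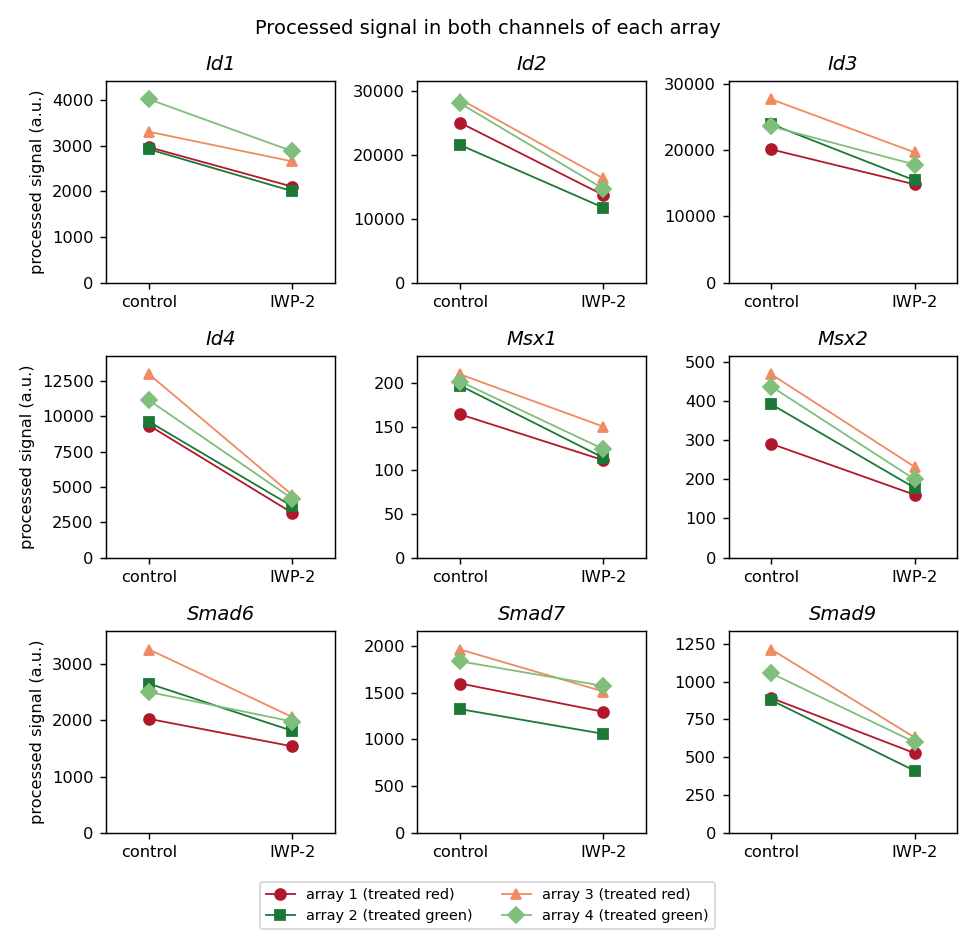
Processed signal (y axis, linear from 0 in arbitrary units, with its own range in each panel) of the 9 genes in the control and the IWP-2 channel (x axis) of each array, with lines joining the channels of 1 array. Each line falls from control to treated, and control and treated channels overlap in range for Smad6 and Smad7 only. The share of all genes with every treated channel below every control channel (11.5%) was counted after normalisation. It was not counted on processed signals. The height of a probe's signal cannot be compared between genes.

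Of the MSX genes, Msx2 fell more than Msx1. Msx2 (probe on chromosome 13, 53562318 to 53562377, minus strand) had processed signals of 291 and 161, 391 and 178, 468 and 232, and 437 and 200 in control and treated RNA on arrays 1 to 4. Treated and control channels did not overlap, although array 1 had the smallest fall. The log2 ratios were -0.77, -1.09, -0.98 and -1.08 (mean -0.98 ± 0.15, 1.97-fold, 95% interval -1.10 to -0.87, limma adjusted p = 6.00e-05). Msx2 and Id4 were the 2 genes of the 9 that lay in the lowest 1% of all genes on each of the 4 arrays, as 0.641% of all genes did.

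Msx1 (chromosome 5, 38212305 to 38212364, minus strand) went from 164 to 112, 197 to 114, 210 to 150 and 202 to 124 in processed signal. Its channels did not overlap either. The log2 ratios of -0.50, -0.71, -0.46 and -0.64 averaged -0.58 ± 0.12 (1.49-fold, limma adjusted p = 0.000233). Msx1 was the only one of the 9 with an unadjusted p under 0.05 for the dye term (0.0423), and its mean was -0.48 with treated RNA in red and -0.68 with treated RNA in green. Both MSX probes gave low intensities, for which the constant of 50 added to each channel before taking logarithms draws ratios towards 0. On the processed signals, which hold no such constant, the mean log2 ratios were -1.03 for Msx2 and -0.63 for Msx1.

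Among the SMAD genes, Smad9 fell most. The processed signal of Smad9 (chromosome 3, 54605068 to 54605127, plus strand) went from 891 to 527, 876 to 410, 1212 to 631 and 1053 to 599 on arrays 1 to 4, without overlap of the groups. The log2 ratios were -0.72, -1.07, -0.94 and -0.81 (mean -0.89 ± 0.15, 1.85-fold, 95% interval -1.03 to -0.74, limma adjusted p = 0.000240). The other receptor-activated SMADs of the BMP branch were not called by their brightest probes, with -0.06 ± 0.13 for Smad1 (limma adjusted p = 0.444) and 0.10 ± 0.04 for Smad5 (0.114). A further probe of Smad1 was lower (-0.26 ± 0.18, limma adjusted p = 0.0108 over all probes). With the mean of its probes Smad1 was called lower. The common partner Smad4 was at 0.05 ± 0.16 (0.435). Smad9 was lower than Smad1 by a difference in log2 ratio of -0.83 ± 0.25 and lower than Smad5 by -0.98 ± 0.14, each on 4 of 4 arrays. These 2 differences were chosen after the values were seen and carry no test.

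The inhibitory Smad6 and Smad7 had small falls. Smad6 (chromosome 9, 63800980 to 63801039, minus strand) went from 2026 to 1538, 2652 to 1813, 3261 to 2059 and 2504 to 1978 in processed signal, and Smad7 (chromosome 18, 75555371 to 75555430, plus strand) from 1599 to 1296, 1324 to 1060, 1963 to 1513 and 1836 to 1573. Each array showed a fall, but the brightness of the arrays differed enough for the control and treated channels of both genes to overlap in processed signal. The log2 ratios were -0.40, -0.54, -0.68 and -0.34 for Smad6 (mean -0.49 ± 0.15, 1.40-fold, limma adjusted p = 0.00215). They were -0.30, -0.32, -0.39 and -0.23 for Smad7 (mean -0.31 ± 0.07, 1.24-fold, limma adjusted p = 0.00273). With the series table of fold changes, which is rounded to 1 decimal, Smad6 and Id3 did not pass the test (both -0.51, limma adjusted p = 0.0684 and 0.0512).

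The order of the 9 genes was, from the largest fall to the smallest, Id4, Msx2, Smad9, Id2, Msx1, Id3, Smad6, Id1 and Smad7. Id4 came first on each array. Smad7 came last on arrays 1, 2 and 4, while Id1 was last on array 3. Id4 was below Msx2 on 4 of 4 arrays, by -0.50 ± 0.23, and Id2 was below Msx1 on 4 of 4, by -0.29 ± 0.10. The other steps were within their spread or close to it, at -0.09 ± 0.12 for Msx2 against Smad9 (lower for Msx2 on 4 of 4 arrays), -0.02 ± 0.18 for Smad9 against Id2 and -0.09 ± 0.10 for Msx1 against Id3. Id3, Smad6 and Id1 had no stable order among themselves (differences of 0.00 ± 0.15 and -0.03 ± 0.22), and Id1 was below Smad7 on 3 of 4 arrays (-0.15 ± 0.14).

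To compare relatives within a family, the log2 ratios were subtracted on each array for 10 pairs. The sign was the same on 4 of 4 arrays for 9 of 10 pairs. Id4 was below each other ID gene, by 1.02 ± 0.18 against Id1, 0.99 ± 0.18 against Id3 and 0.61 ± 0.14 against Id2 (SD, n = 4 arrays). Id2 was below Id1 by 0.41 ± 0.07, and the difference of Id2 minus Id3 was -0.38 ± 0.13. Id1 and Id3 differed by 0.04 ± 0.11, with signs that were mixed between arrays. Msx2 was below Msx1 by 0.40 ± 0.10. Smad9 was below Smad6 by 0.40 ± 0.13 and below Smad7 by 0.58 ± 0.14, while Smad6 minus Smad7 was -0.18 ± 0.09. An exact sign-flip permutation test over 4 arrays gave for these 9 pairs the smallest two-sided p that it can give, which was 0.139 after adjustment over the 10 pairs, and p = 0.5 for Id1 against Id3. This limit is that of the sign-flip test with 4 arrays, so the size of each difference beside its SD carries the comparison.

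**Figure D4:**
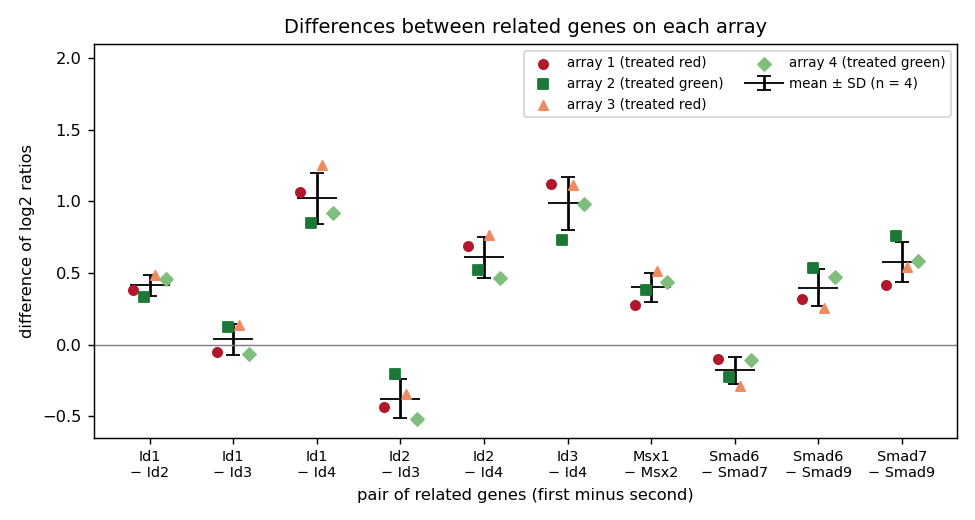
Difference of the log2 ratios (y axis, first gene minus second) for 10 pairs of related genes (x axis), with 1 symbol per array and the mean ± SD over 4 arrays. All 4 symbols lie on one side of 0 for 9 of 10 pairs, and those of Id1 minus Id3 lie on both sides.

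The study's own filter asked for more than a 2-fold change on every array and an intensity above 100, and involved no test. The study describes these limits for 2 arrays per stage. Here the filter was applied to all 4 arrays, with the intensity taken from the brighter channel. Of the 9 genes only Id4 met it on the processed signals, with falls of 2.95-, 2.65-, 2.92- and 2.67-fold, as did 0.348% of all gene names in that direction. Msx2 missed it because of array 1, where its fall was 1.81-fold, against 2.19-, 2.02- and 2.18-fold on the others. Without array 1 the filter kept 2 of the 9 genes, Id4 and Msx2, and 127 of all 29924 gene names in that direction. With a limit of 1.5-fold on each array it kept 4 of the 9 genes, adding Smad9 and Id2, whose smallest falls were 1.69- and 1.76-fold. At that limit it kept 206 of all 29924 gene names in that direction.

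Around these targets, 35 further genes of the BMP pathway and of ID partners were examined, all of which were tested. Of these, 13 were lower, 3 were higher and 19 were not called, with a median log2 ratio of -0.09, while 15% of all genes were called lower and 18.1% higher. This list, too, was chosen with earlier results of these data known. With each array left out in turn, 10 of the 13 lower calls and 1 of the 3 higher calls, that of Bmp7, were kept throughout. Of 6 ligand genes 3 were lower. Bmp4, the main BMP of the ureteric mesenchyme, was at -1.13, -1.37, -1.37 and -1.35 on the 4 arrays (mean -1.31 ± 0.12, 2.47-fold, limma adjusted p = 2.86e-05), and all arrays lay far below 0. Bmp5 was at -0.61 ± 0.19 and Bmp6 at -0.48 ± 0.12, whereas Bmp7 was higher at 0.42 ± 0.06 (limma adjusted p = 0.000817). Bmp2 and Gdf6 were not called.

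Of the 5 extracellular modulators 4 were lower. The antagonists Grem1 and Nog were at -0.42 ± 0.10 and -0.25 ± 0.08, and the BMP-binding regulators Bmper and Twsg1 at -0.43 ± 0.23 and -0.20 ± 0.15. The call of Twsg1 was lost without array 3 or array 4. The pseudoreceptor Bambi, itself an inhibitor, was at -0.53 ± 0.20 and was the only 1 of 6 intracellular inhibitors to be called. Bambi lay at -0.71 and -0.69 with treated RNA in red and at -0.32 and -0.40 with treated RNA in green. Of 6 receptor genes, Acvr1 was lower (-0.24 ± 0.19) and Acvr2b higher (0.16 ± 0.08). Both calls were lost with the processed signals, that of Acvr1 also without array 2 or 3, and that of Acvr2b without array 1, 3 or 4. The transducers Smad1, Smad5 and Smad4 and the TGF-beta transducers Smad2 and Smad3 were not called. Of 4 other genes that respond to BMPs, 3 were lower, with Atoh8 at -0.70 ± 0.25, Dlx5 at -0.42 ± 0.18 and Gata6 at -0.14 ± 0.02. The call of Gata6 was lost with any 1 of the 4 arrays left out and was kept under 6 of 14 alternatives. When a mean processed signal over 100 was asked for, the lower calls of Bmp6, Grem1, Nog, Bambi and Dlx5 were absent. With the series table those of Acvr1, Bmp6, Bmper, Dlx5, Gata6, Nog and Twsg1 were lost.

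Of the 3 partners of the ID proteins, 1 was lower and 1 higher. Tcf12, which encodes the E protein HEB, was at -1.33, -1.12, -1.5 and -1.13 on the 4 arrays (mean -1.27 ± 0.18, 2.41-fold, limma adjusted p = 2.16e-05). A second probe of Tcf12 gave -1.35 ± 0.18. In mean log2 ratio Tcf12 lay between Id4 and the other ID genes. Tcf4 was higher at 0.18 ± 0.06 (limma adjusted p = 0.0216), a call lost without array 1 or array 4, and Tcf3 was not called (-0.09 ± 0.13).

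**Figure D5:**
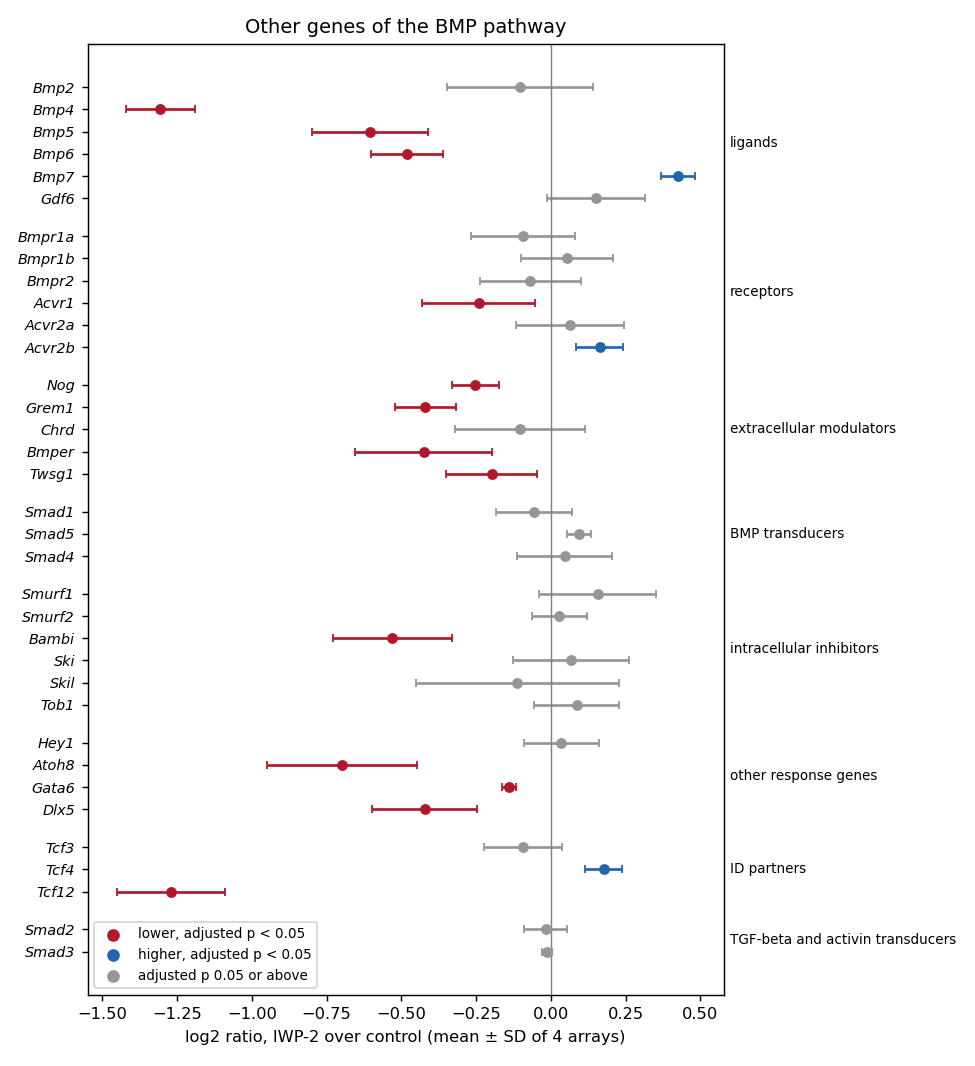
Mean log2 ratio of IWP-2 over control with SD over 4 arrays for the 35 further genes, grouped by role, with colour for the call of the limma test. Bmp4 (-1.31) and Tcf12 (-1.27) lie farthest below 0, and Bmp7 (0.42) lies highest.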

How the data were processed

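Each two-colour Agilent array compared 1 pool of IWP-2-treated ureters with 1 control pool. All 4 arrays lie on 1 slide. The authors extracted the spots with Agilent Feature Extraction 10.7.3.1, and the deposited scanner files give raw and background intensity, a processed intensity (background-subtracted, dye-normalised) and, per the file headers, a log10 ratio of red over green, used here to check direction only (r = 0.935 to 1.00 against the processed signals). The series table deposited by the authors holds a score per probe and array, a signed fold change with 1 decimal, and the sources used here do not give its normalisation. It followed the processed ratios with r of 0.989 to 0.992 and served as an alternative only.

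Raw intensities were corrected with limma 3.58.1 (R 4.3.3; normexp, offset 50) and normalised by loess (span 0.3). Control spots had weight 0 and outlier spots (3.01% to 3.38%) were left out. Spots of a probe were averaged, and no gene spot was saturated. Median raw intensities were 368 to 711 (control) and 385 to 694 (treated), and 75.1% to 80.0% of probes were well above background. The number of arrays limits the precision. A probe was kept if well above background in all 4 control or all 4 treated channels, with a value on all 4 arrays. A gene was tested if it had such a probe, and the brightest of them stood for the gene. Ratios were fitted with limma (lmFit, eBayes) on treatment and dye. Each array pairs its 2 pools. The fit was also run on simulated ratios with independent normal noise, whose spreads and dye effects were taken from these arrays. Such a run tests the computation and not the calls made here.

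The 9 genes, the pathway and marker lists and the motifs were chosen with earlier results of these data known. All 9 are named, with the pathway genes past the test, Smad1, Smad4, Smad5, 3 WNT readouts, and for Id4, Msx2 and Id2 the 3 genes with the nearest values. Gene names are those of the array design, and probe positions are on mm9, of which no annotation was used here, and exons and untranslated regions are therefore not named. The alternatives were another offset, processed signals, the series table, Aquantile, 2 other filters on dim probes, no dye term, unpaired channels, the mean of probes, outlier spots kept, and each array left out.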

Additional observations from a re-analysis of the deposited data

Results flagged for a closer look

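Of 57 sets of 4 array values examined for a single distant array, 2 stood out, where chance would give about 2.85, and none of the 9 genes was among them. For Bmp4, array 1 was at -1.13, while the other arrays lay between -1.37 and -1.35. For Smad3, array 1 was at -0.037, while the others lay between -0.0065 and -0.0035, all of them close to 0.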

How the results depend on the processing

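All 9 genes were lower under each of the 14 alternatives run. Each stayed past the test except Id3 (-0.51) and Smad6 (-0.51) with the series table, where 7 of 9 passed. No sign turned. Not all 14 could have changed the ratios of these 1-probe genes. Aquantile, the 2 other filters on dim probes and the mean of probes left their mean log2 ratios the same by design. So did dropping the dye term and unpairing the channels. Aquantile left their adjusted p unchanged too. The sign was therefore checked only by another offset, processed signals, the series table, outlier spots kept (Msx2 and Smad6 only) and each array left out. Leaving out 1 array moved the mean of Id4 between -1.49 and -1.47 and that of Smad7 between -0.33 and -0.29. With the treated channels and control channels as 8 separate samples, without the pairing by array (no replicate block), the highest adjusted p of the 9 was 0.0336, and the pathway genes called higher fell from 3 to 1. That number was 1 to 4 with 1 array left out, with only Bmp7 called without array 1. The pathway genes called lower were 6 with the series table and 8 with a mean processed signal over 100, where 29 of the 35 were tested. The 2-fold filter kept 4 of the 9 genes at 1.5-fold and 1 to 2 with 1 array left out (2 without array 1). Of all 29924 gene names it kept 206 at 1.5-fold and 110 to 127 with 1 array left out, in the lower direction. Over all genes, 3360 were lower and 4068 higher in the fit reported, against 2050 and 1833 with the series table, 2068 and 2033 without the pairing, and 2180 and 2878 without array 3. The cause of these changes was not tested. The comparison of second probes was not run, since each of the 9 genes has 1 probe. With 4 arrays the exact sign-flip test of a single difference cannot pass 0.05. The dim Msx1 and Msx2 probes have ratios that depend on the offset (Msx2 at -1.02 with an offset of 16).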

Other observations

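The genes whose 4 array values lay nearest to those of Id4 were Ccdc85a, Rasgef1c and Dkk2, the last encoding a secreted modulator of WNT signalling, with root mean square differences in log2 ratio over 4 arrays of 0.0593, 0.0911 and 0.108. Nearest to Msx2 were Cdk15 (0.0114), Dpp6 (0.0346) and Psat1 (0.0594). Nearest to Id2 were Chrdl1, which encodes a BMP antagonist (0.0646), Enpp2 (0.0963) and Adarb1 (0.0992). These are descriptions over 4 arrays and carry no test.

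Several pathway genes have further probes. The probes of Smad1 gave log2 ratios of -0.06 ± 0.13, -0.08 ± 0.11 and -0.26 ± 0.18, and the last passed the limma test over all probes (adjusted p = 0.0108) while the others did not. The probes of Smad5 gave 0.10 ± 0.04 and -0.05 ± 0.10, and those of Smad4 0.05 ± 0.16 and 0.03 ± 0.08, none of which passed.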
